A study of Saccharomyces cerevisiae with 4 samples.

Results

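The 10 genes described here encode the main enzymes and scaffolds that shorten, decap and digest mRNA in the yeast cytoplasm. They were chosen by identifier from the deposited count table, which lists 6692 open reading frames: PAN2 (YGL094C), PAN3 (YKL025C), CCR4 (YAL021C), POP2 (YNR052C), CDC39 (YCR093W), NOT3 (YIL038C), NOT5 (YPR072W), CAF40 (YNL288W), DCP2 (YNL118C) and XRN1 (YGL173C). RNA was sequenced from 2 biotin eluates of affinity-purified nuclear mRNPs and from 2 total lysates. All 4 libraries came from Saccharomyces cerevisiae BY4741, a haploid laboratory strain, grown in YPD and carrying sub2-FLAG-3C-ProtA::kanMX4 and hpr1-TS::hphNT1, so that the lysates hold the tagged Sub2 and Hpr1 too. The eluates followed capture through Sub2 and then through the THO subunit Hpr1, and the lysates were taken before the first capture. The paper calls the replicates biological. No untagged purification was analysed here, so that RNA held by the beads cannot be told apart from RNA in the particles.

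Most yeast mRNAs are degraded from the tail inward and then from the cap. The nuclease Pan2 with its partner Pan3 first trims the poly(A) tail, and the larger Ccr4-Not complex then removes most of the remainder. Loss of the tail leads to removal of the cap by Dcp2, and the exposed body of the mRNA is digested from its 5′ end by Xrn1. These proteins act mostly on cytoplasmic mRNA, whereas the eluates hold mRNPs captured on nuclear packaging factors. The comparison therefore asks whether messages for the cytoplasmic decay machinery take a larger or smaller share of eluate RNA than of lysate RNA.

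Of the 10 genes, 8 were higher in the eluates than in the lysates, POP2 was lower, and NOT5 did not pass the test. Fold changes of the genes that were higher ran from 1.26 for CAF40 to 7.66 for NOT3. A gene was called where its Benjamini-Hochberg adjusted p from edgeR, a quasi-likelihood test over the 6191 genes past the filter on low counts, was under 0.05. All 10 passed that filter. Across all genes tested, 44.2% were called higher and 44.8% lower. Log2 enrichment below is the fitted log2 fold change, eluate over lysate, with its standard error (SE). The median log2 fold change was 1.76 over the 10 genes and -0.01 over all genes tested. Over 4-fold higher were 3 of the 10, PAN3, NOT3 and DCP2, against 15.0% of all genes tested. The 10 genes are long, with a median coding length of 2513 bases against 1146 bases over all genes tested, and long genes as a class were enriched in the eluates. Each library measures shares of its own RNA, so that more of an mRNA and less of the other RNAs cannot be told apart.

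Libraries held from 11448755 to 29903666 counts. Single counts of the 10 genes ran from 343, for CAF40 in a lysate, to 84136, for XRN1 in an eluate. None of the 10 reading frames overlaps another in the table, and none holds an intron. The paper reports a 5′ bias of coverage in the eluates, less marked in single profiles, and reads it as nascent transcripts. It found unfinished transcription more evident in very long transcripts. Counts per kb, used below, cannot tell unfinished from complete RNAs. Levels are given as CPM (counts scaled to a common library total) over library sizes adjusted by TMM, a scaling that assumes most genes keep their share. In these data most genes tested were called, 44.2% higher and 44.8% lower, so that small differences depend on this scaling. Both eluates lay above both lysates for 8 of the 10 genes and below them for 2, against 46.9% and 47.5% of all genes tested, and the fractions overlapped for none of the 10, against 5.59% of all genes.

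**Figure D1:**
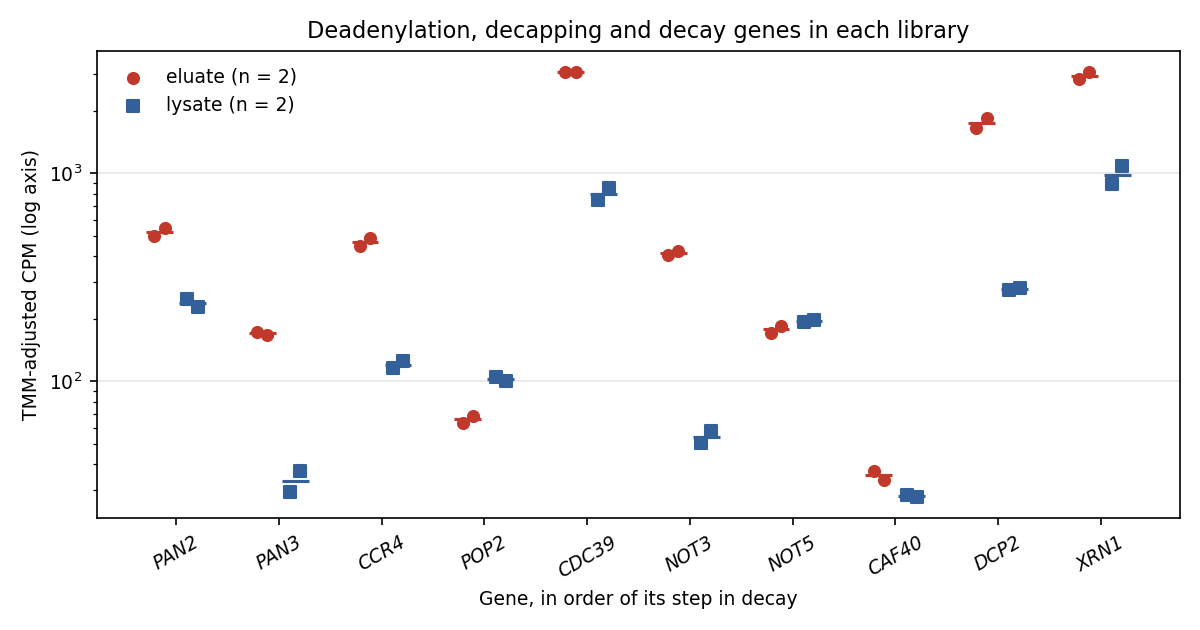
TMM-adjusted CPM on a log axis for each of the 10 genes, in the 2 eluates (red circles) and the 2 lysates (blue squares), with a bar at each mean. The eluates lie above the lysates for 8 genes and below them for POP2 and NOT5, and no gene has overlapping fractions.

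The deadenylase that acts first was enriched in both of its parts, but unequally. PAN2, the catalytic subunit, lies on chromosome VII from 331118 to 334465 on the minus strand (sacCer3). It had 502 and 547 CPM in the eluates, against 249 and 228 CPM in the lysates. Its log2 enrichment was 1.14 ± 0.10 (SE, edgeR adjusted p = 4.83e-08), or 2.20-fold. PAN3, which recruits Pan2 to mRNA through the poly(A)-binding protein, lies on chromosome XI from 390240 to 392279 on the minus strand. It had 174 and 168 CPM in the eluates and 29.4 and 37.0 CPM in the lysates. Its log2 enrichment was 2.37 ± 0.11 (SE, edgeR adjusted p = 1.71e-11), or 5.16-fold. Both eluates exceeded both lysates for each gene. PAN2 was the more abundant message of the pair per length in either fraction, and by a smaller factor in the eluates. Per kb of coding sequence, its counts were 1.76 and 1.99 times those of PAN3 in the eluates, against 5.16 and 3.76 times in the lysates.

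Ccr4-Not carries its catalytic subunits Ccr4 and Pop2 on the scaffold Cdc39, also called Not1. The messages of the catalytic subunits moved in opposite directions. CCR4, the main deadenylase, lies on chromosome I from 110846 to 113359 on the minus strand. It had 450.0 and 487 CPM in the eluates and 116 and 125 CPM in the lysates, and its log2 enrichment was 1.96 ± 0.10 (SE, edgeR adjusted p = 6.50e-11). POP2, the yeast Caf1, a nuclease that also joins Ccr4 to the scaffold, lies on chromosome XIV from 719346 to 720647 on the minus strand. It had 63.5 and 67.9 CPM in the eluates and 106 and 100.5 CPM in the lysates. Its log2 enrichment was -0.65 ± 0.09 (SE, edgeR adjusted p = 6.30e-06), so that POP2 was 1.57-fold lower in the eluates. POP2 was the only gene of the 10 called lower, and a test against a 1.5-fold change no longer called it (adjusted p = 0.126 with glmTreat of edgeR, with a range of 8.67e-12 to 0.126 over 12 alternatives). Inside each library, CCR4 had 3.67 and 3.72 times the counts per kb of POP2 in the eluates, against 0.568 and 0.646 times in the lysates. The order of the messages of these partners was therefore the opposite in the 2 fractions.

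CDC39, the scaffold of the complex, had the highest mean level per length of its messages in either fraction. It lies on chromosome III from 280117 to 286443 on the plus strand and is the longest gene here, with 6327 coding bases. It had 3061 and 3065 CPM in the eluates and 743 and 847 CPM in the lysates. Its log2 enrichment was 1.95 ± 0.13 (SE, edgeR adjusted p = 1.30e-09), or 3.85-fold. CAF40, a peripheral subunit bound to the scaffold, is the shortest gene here, with 1122 coding bases on chromosome XIV from 90303 to 91424. It had 37.3 and 33.8 CPM in the eluates and 28.5 and 27.9 CPM in the lysates. This was the smallest change among the genes called, and its log2 enrichment was 0.33 ± 0.11 (SE, edgeR adjusted p = 0.00974). With library sizes alone in place of TMM, CAF40 did not pass (log2 fold change 0.16, edgeR adjusted p = 0.229, with a range of 0.00445 to 1.00 over 12 alternatives). That scaling lowers all genes by a median of 0.18 on the log2 scale.

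NOT3 and NOT5 encode related subunits that bind the scaffold, and of the 6 ratios compared theirs changed most between the fractions. NOT3 lies on chromosome IX from 280142 to 282652 on the minus strand. It had 404 and 425 CPM in the eluates and 50.7 and 57.8 CPM in the lysates. Its log2 enrichment of 2.94 ± 0.11 (SE, edgeR adjusted p = 1.24e-12) was the highest of the 10 and stood at percentile 93.0 of all genes tested. NOT5, on chromosome XVI from 690107 to 691789 on the plus strand, had 171 and 185 CPM in the eluates and 192 and 199 CPM in the lysates. The log2 enrichment of NOT5 was -0.13 ± 0.09 (SE, edgeR adjusted p = 0.186). The eluates lay below the lysates, but the higher eluate was closer to the lower lysate than to the other eluate. Failing the test does not show equal levels. With library sizes alone NOT5 passed as lower (log2 fold change -0.31, edgeR adjusted p = 0.00602, with a range of 0.00602 to 1.00 over 12 alternatives). Counts per kb of NOT5 were 0.630 and 0.649 times those of NOT3 in the eluates, against 5.66 and 5.12 times in the lysates.

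DCP2 and XRN1 encode the enzymes of the steps after deadenylation. DCP2, the catalytic subunit of the decapping enzyme, lies on chromosome XIV from 402652 to 405564 on the minus strand. It had 1646 and 1855 CPM in the eluates and 275 and 282 CPM in the lysates. Its log2 enrichment was 2.65 ± 0.12 (SE, edgeR adjusted p = 1.32e-11), or 6.29-fold. XRN1, the exonuclease that digests decapped mRNA, lies on chromosome VII from 175527 to 180113 on the minus strand. It had 2829.8 and 3072 CPM in the eluates and 888 and 1085 CPM in the lysates, and its log2 enrichment was 1.58 ± 0.14 (SE, edgeR adjusted p = 3.12e-08). Both eluates exceeded both lysates for either gene. Per kb, XRN1 had 1.09 and 1.05 times the counts of DCP2 in the eluates, against 2.05 and 2.45 times in the lysates.

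In total, 6 ratios between pairs of genes were compared, each taken inside a library so that no scaling between libraries enters. The change was largest for NOT5 over NOT3, where the mean log2 ratio was -0.64 ± 0.03 in the eluates and 2.43 ± 0.10 in the lysates (SD, n = 2 each). The others were CCR4 over POP2, PAN2 over PAN3, XRN1 over DCP2, CDC39 over CAF40 and XRN1 over RAT1. Eluates and lysates did not overlap in any of the 6. The fractions overlapped for only 5.59% of all single genes tested, and no share over other pairs was taken. RAT1 encodes the nuclear relative of Xrn1, and XRN1 had 3.46 and 3.66 times its counts per kb in the eluates, against 1.78 and 2.28 times in the lysates. CDC39 had 14.5 and 16.1 times the counts per kb of CAF40 in the eluates, against 4.63 and 5.38 times in the lysates. Counts per kb do not remove the trend of log2 fold change with coding length, given below. Less that trend, CDC39 stood lower than CAF40 (-0.63 and 0.67), the reverse of the change in their ratio. The other pairs kept the direction of their change, with XRN1 at -0.61 and RAT1, of 3021 coding bases, at -0.83. The part of length in these ratios was not tested. The exact permutation test over libraries gave p = 0.333 for each ratio (two-sided, adjusted p = 0.333 over the 6), the smallest value that 2 against 2 libraries allow, so that none could pass.

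Together the 10 genes took a larger part of the eluates. They held 0.901% and 0.907% of all counts in the eluates (95% exact binomial intervals 0.897% to 0.904% and 0.904% to 0.911%), against 0.282% and 0.321% in the lysates (0.279% to 0.285% and 0.318% to 0.324%). These intervals cover counting error alone, not the spread between libraries, and those of the 2 lysates do not overlap. They treat reads as independent and may be too narrow. No molecular identifiers that would separate molecules from PCR copies are described for these libraries. The mean share was 3.0 times as large in the eluates (p = 0.333 in a two-sided exact permutation test, which can give no smaller value here). CDC39, XRN1 and DCP2 made up most of it, with 80.7% of the counts of the 10 genes in each eluate and 71.2% and 74.1% in the lysates. Shares of counts are not corrected for length, and these are long genes. CDC39, XRN1 and DCP2 belong to the longest of 5 classes of nuclear protein-coding genes. The median log2 fold change in that class was 1.56.

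Per kb of coding sequence, the order of the 10 messages differed between the fractions. In the eluates XRN1 led with 643 ± 37.3 CPM per kb, followed by DCP2 with 601 ± 50.8 and CDC39 with 484 ± 0.431 (SD, n = 2 each). CCR4, NOT3, PAN2, NOT5, PAN3 and POP2 came next, and CAF40 was last with 31.7 ± 2.24 CPM per kb. Neighbours whose libraries overlapped were XRN1 with DCP2 and NOT3 with PAN2. In the lysates the order was XRN1 with 215 ± 30.4 CPM per kb, CDC39, NOT5, DCP2, POP2, PAN2, CCR4, CAF40, NOT3 and PAN3, the last with 16.3 ± 2.65 (SD, n = 2 each). Only CDC39 and NOT5 overlapped there. NOT5 and POP2 thus stood at places 7 and 9 in the eluates and at places 3 and 5 in the lysates. Among 5774 nuclear protein-coding genes tested, ranked by CPM per kb, XRN1, DCP2 and CDC39 stood at ranks 45, 55 and 102 in the eluates, and at ranks 677, 1452 and 1116 in the lysates. CPM per kb does not remove the trend with coding length, and these genes belong to the longest length class, with a median log2 fold change of 1.56. Against that trend XRN1 and CDC39 stood at -0.61 and -0.63, and DCP2 at 1.10. The part of length in these ranks was not tested.

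The messages of Ccr4-Not, a single complex, were present in other proportions in the eluates than in the lysates. Beside its 6 subunits among the 10 genes, the other subunits are CDC36, the Not2 that pairs with Not5, MOT2, the ubiquitin ligase Not4, and CAF130, a peripheral subunit. CDC36 had 5.96 and 5.07 CPM in the eluates and 57.8 and 56.9 CPM in the lysates and fell by 3.38 on the log2 scale (edgeR adjusted p = 1.44e-12). MOT2 rose by 2.99 (edgeR adjusted p = 7.00e-12), with 328 and 307 CPM in the eluates and 34.2 and 46.1 CPM in the lysates. CAF130 rose by 1.82 (edgeR adjusted p = 1.40e-10). Coding lengths are 576 bases for CDC36, 1764 for MOT2 and 3369 for CAF130. Against the trend of log2 fold change with coding length, given below, they stood at -2.03, 2.37 and 0.08. The part of length in these changes was not tested. Of the summed CPM per kb of the 9 subunits, CDC39 took a mean of 36.4% in the eluates and 22.0% in the lysates. CDC36, NOT5 and POP2 took mean shares of 0.721%, 7.95% and 3.79% of the eluate sum, against 17.5%, 20.3% and 13.9% of the lysate sum. MOT2 and NOT3 moved the other way, with 13.5% and 12.4% of the eluate sum and 3.98% and 3.78% of the lysate sum. The highest of the 9 messages was 50.5 times the lowest in the eluates and 5.81 times in the lysates.

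**Figure D2:**
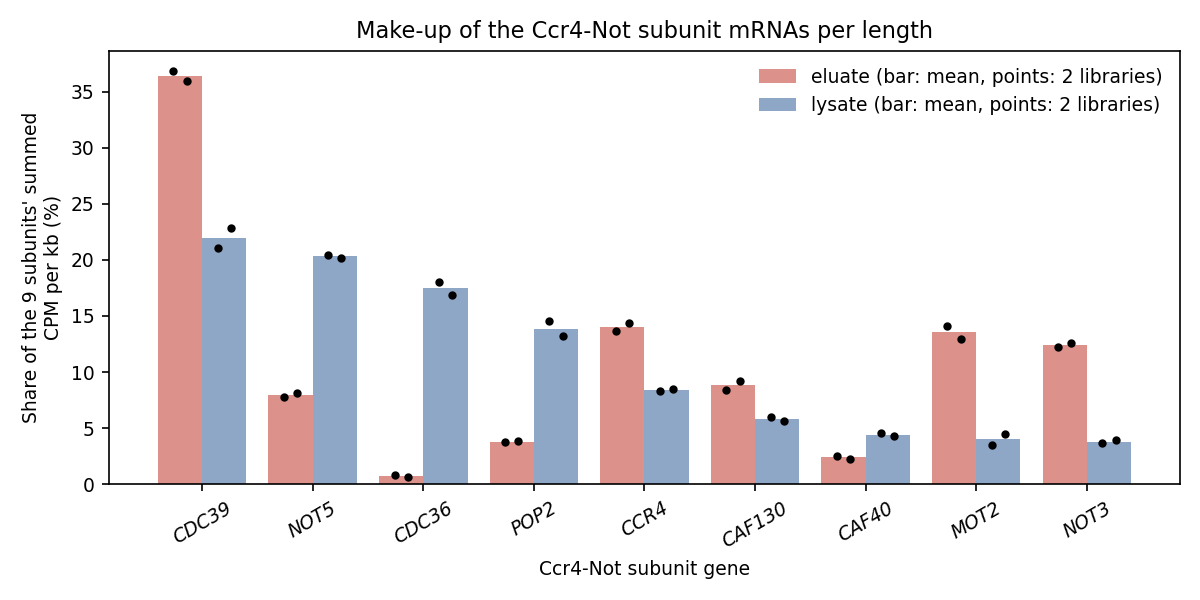
Share of each Ccr4-Not subunit gene in the summed CPM per kb of the 9 subunit genes (percent), as the mean (bars) and the 2 libraries (points) of eluates (red) and lysates (blue). CDC36, NOT5 and POP2 have smaller shares in the eluates, and CDC39, CCR4, MOT2 and NOT3 have larger ones.

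Coding length moved with these differences. The 6 longest of the 10 genes, CDC39, XRN1, PAN2, DCP2, CCR4 and NOT3, belong to the longest of 5 classes of nuclear protein-coding genes, from 2121 bases up, and all 6 were higher. In that class 83.3% of 1153 genes were called higher, with a median log2 fold change of 1.56. POP2 and CAF40 belong to the middle class, where 35.9% of 1164 genes were higher and the median was -0.30. PAN3 and NOT5 belong to the next longer class, where 59.5% of 1147 were higher and the median was 0.53. Against a smooth trend of log2 fold change on coding length, 5 of the 10 genes lay above and 5 below, with a median residual of 0.03 against -0.10 over nuclear protein-coding genes. NOT3, PAN3 and DCP2 stood above the trend by 1.62, 1.45 and 1.10 on the log2 scale, CAF40 by 0.67 and CCR4 by 0.64. Below it were NOT5, CDC39, XRN1, PAN2 and POP2, with residuals between -0.64 and -0.57. CDC39, XRN1 and PAN2 were thus higher in the eluates yet below the trend. Against the median of their class, 1.56, CDC39 lay above (1.95), PAN2 below (1.14) and XRN1 close to it (1.58 ± 0.14, SE). Spearman's rho of log2 fold change with coding length was 0.394 over the 10 genes and 0.548 over 5774 nuclear protein-coding genes, as a description over genes that share the same 4 libraries. The part of length in each difference was not tested.

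**Figure D3:**
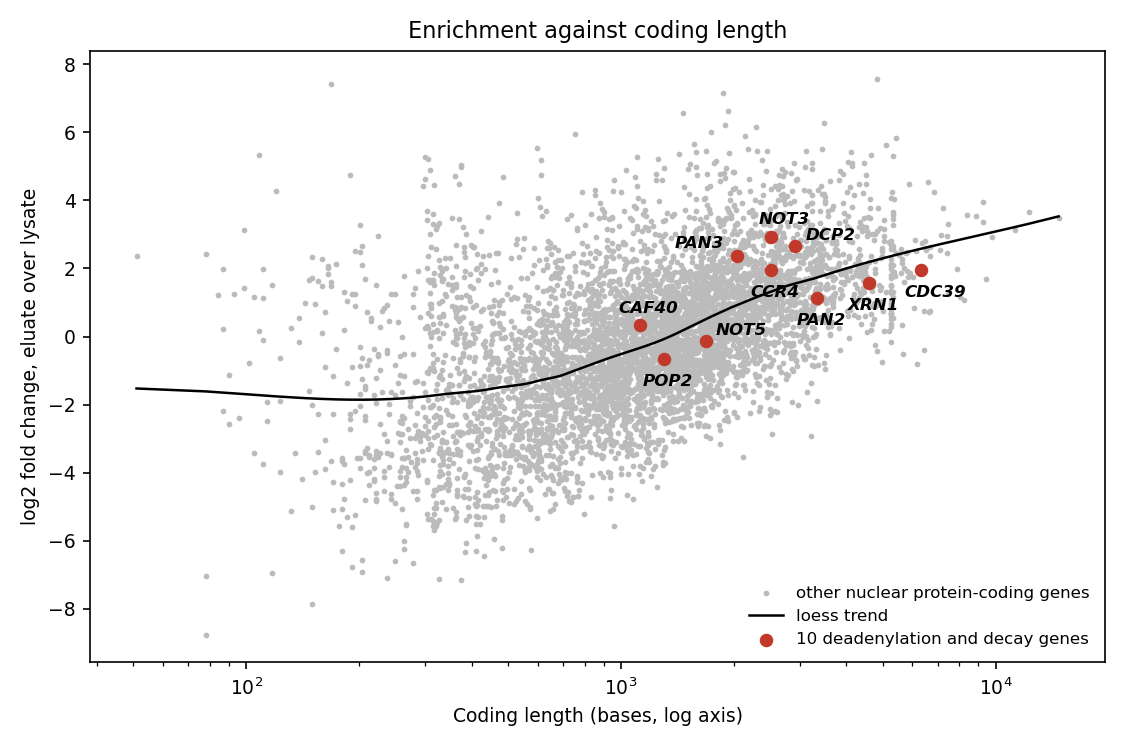
Log2 fold change of eluate over lysate against coding length in bases (log axis) for nuclear protein-coding genes tested (grey), with a loess trend (line) and the 10 genes in red. NOT3, PAN3, DCP2, CAF40 and CCR4 lie above the line and NOT5, CDC39, XRN1, PAN2 and POP2 below it.

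Other genes of mRNA decay were read from 7 lists of 31 genes in all, the 3 further Ccr4-Not subunits among them. By the same call, 13 of the 31 were higher and 15 lower, with a median log2 fold change of -0.08, close to the 44.2% higher, 44.8% lower and median of -0.01 over all genes tested. The lists differed among themselves.

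Genes of decapping and its activators were split, with 3 of 8 higher, 4 lower and 1 not called, and a median of -0.25. DCP1, the partner that Dcp2 needs and named after its values were seen, had 44.6 and 47.8 CPM in the eluates and 66.6 and 68.8 CPM in the lysates. DCP1 fell by 0.55 on the log2 scale (edgeR adjusted p = 6.15e-05), whereas DCP2 was 6.29-fold higher, and DCP1 has 696 coding bases against 2913 for DCP2. Among the most abundant of the list in the lysates, the helicase gene DHH1 rose by 0.27 (edgeR adjusted p = 0.0167), PBY1, of a processing-body protein, fell by 0.63, and EDC3, of an enhancer of decapping, had 0.05 (edgeR adjusted p = 0.640). DHH1 did not pass without eluate 1, eluate 2 or lysate 1 (edgeR adjusted p = 0.0682, 0.0646 and 0.0805), with library sizes alone (0.09, edgeR adjusted p = 0.376) or against a 1.5-fold change (adjusted p = 1.00 from edgeR's glmTreat), and its lowest adjusted p over 12 alternatives was 0.00276. EDC3 changed sign with library sizes alone (-0.13). PAT1, which promotes decapping by binding the Lsm1-7 ring, and EDC1, a small activator of decapping, were singled out after their values were seen. PAT1 had 788 and 659 CPM in the eluates and 30.1 and 36.5 CPM in the lysates, a log2 enrichment of 4.44 ± 0.14 (SE, edgeR adjusted p = 2.26e-13). EDC1 had 34.1 and 30.6 CPM in the eluates and 2.31 and 2.93 CPM in the lysates, a log2 fold change of 3.64 from a reading frame of 528 bases. PAT1 stood 3.22 and EDC1 5.07 above the trend with coding length.

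The Lsm1-7 ring binds the shortened tails of deadenylated mRNA, and Lsm2 to Lsm7 also form a nuclear ring on U6 RNA. All 7 genes were lower, against 44.8% of all genes tested, with log2 fold changes between -5.06 and -0.35 and a median of -3.42. All 7 belong to the shortest of the 5 length classes, where 826 of 1161 genes were lower and the median was -1.86. Of 6191 genes tested, 2254 were lower against a 1.5-fold change. Against a 1.5-fold change 6 of the 7 were called, and LSM4, with -0.35 and also named after its values were seen, was not (adjusted p = 1.00 from edgeR's glmTreat). LSM1, the subunit particular to the cytoplasmic ring, had 41.3 and 43.8 CPM in the eluates and 114 and 117 CPM in the lysates. LSM6 had 3.28 and 2.56 CPM in the eluates and 104.9 and 87.6 CPM in the lysates, and was 33.3-fold lower. LSM2 fell by 4.06. LSM5, named for this alone, overlaps an antisense reading frame, and its count is uncertain. These are short reading frames, from 261 to 564 bases. Against the trend with coding length, LSM4 stood above by 1.03, LSM1 lay almost on it (0.0020) and the others lay below.

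The 4 genes of nonsense-mediated decay, which destroys mRNAs with premature stop codons, were all higher, against 44.2% of all genes tested. NAM7, NMD2 and EBS1 belong to the longest length class, where 83.3% of genes were higher, and UPF3 to the middle class, where 35.9% were. NAM7, the helicase Upf1, had 353 and 328 CPM in the eluates and 88.1 and 87.1 CPM in the lysates and rose by 1.96. NMD2 (Upf2) rose by 1.78, UPF3 by 1.71 and EBS1, a relative of animal SMG proteins, by 0.84. Their edgeR adjusted p was at most 4.29e-07. Of 5 genes of 3′ to 5′ decay, 2 were higher, 2 lower and 1 not called. SKI2, the helicase of the Ski complex that feeds the cytoplasmic exosome, had 1080.5 and 1148 CPM in the eluates and 296 and 316 CPM in the lysates, and was 3.64-fold higher. SKI3, its scaffold, rose by 0.57, while SKI8 fell by 1.05 and DCS1, of the scavenger of the released cap, fell by 2.35. SKI7, of the bridge to the exosome, had -0.07 (edgeR adjusted p = 0.476). SKI8 and DCS1 each overlap an antisense reading frame, SKI8 over 442 of 1194 bases and DCS1 over 31 of 1053. The count of SKI8 is therefore uncertain, and that of DCS1 less so.

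PAB1, the poly(A)-binding protein that recruits the Pan2-Pan3 nuclease, rose by 0.62 (edgeR adjusted p = 4.80e-05). PBP1, whose product binds Pab1, had a log2 fold change of -0.08 (edgeR adjusted p = 0.443). RAT1, the nuclear exonuclease, had 539 and 553 CPM in the eluates and 329 and 313 CPM in the lysates and rose by 0.77. RAI1, its partner, fell by 1.55. With library sizes alone, PBP1 and SKI7 passed as lower (-0.26 and -0.25).

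**Figure D4:**
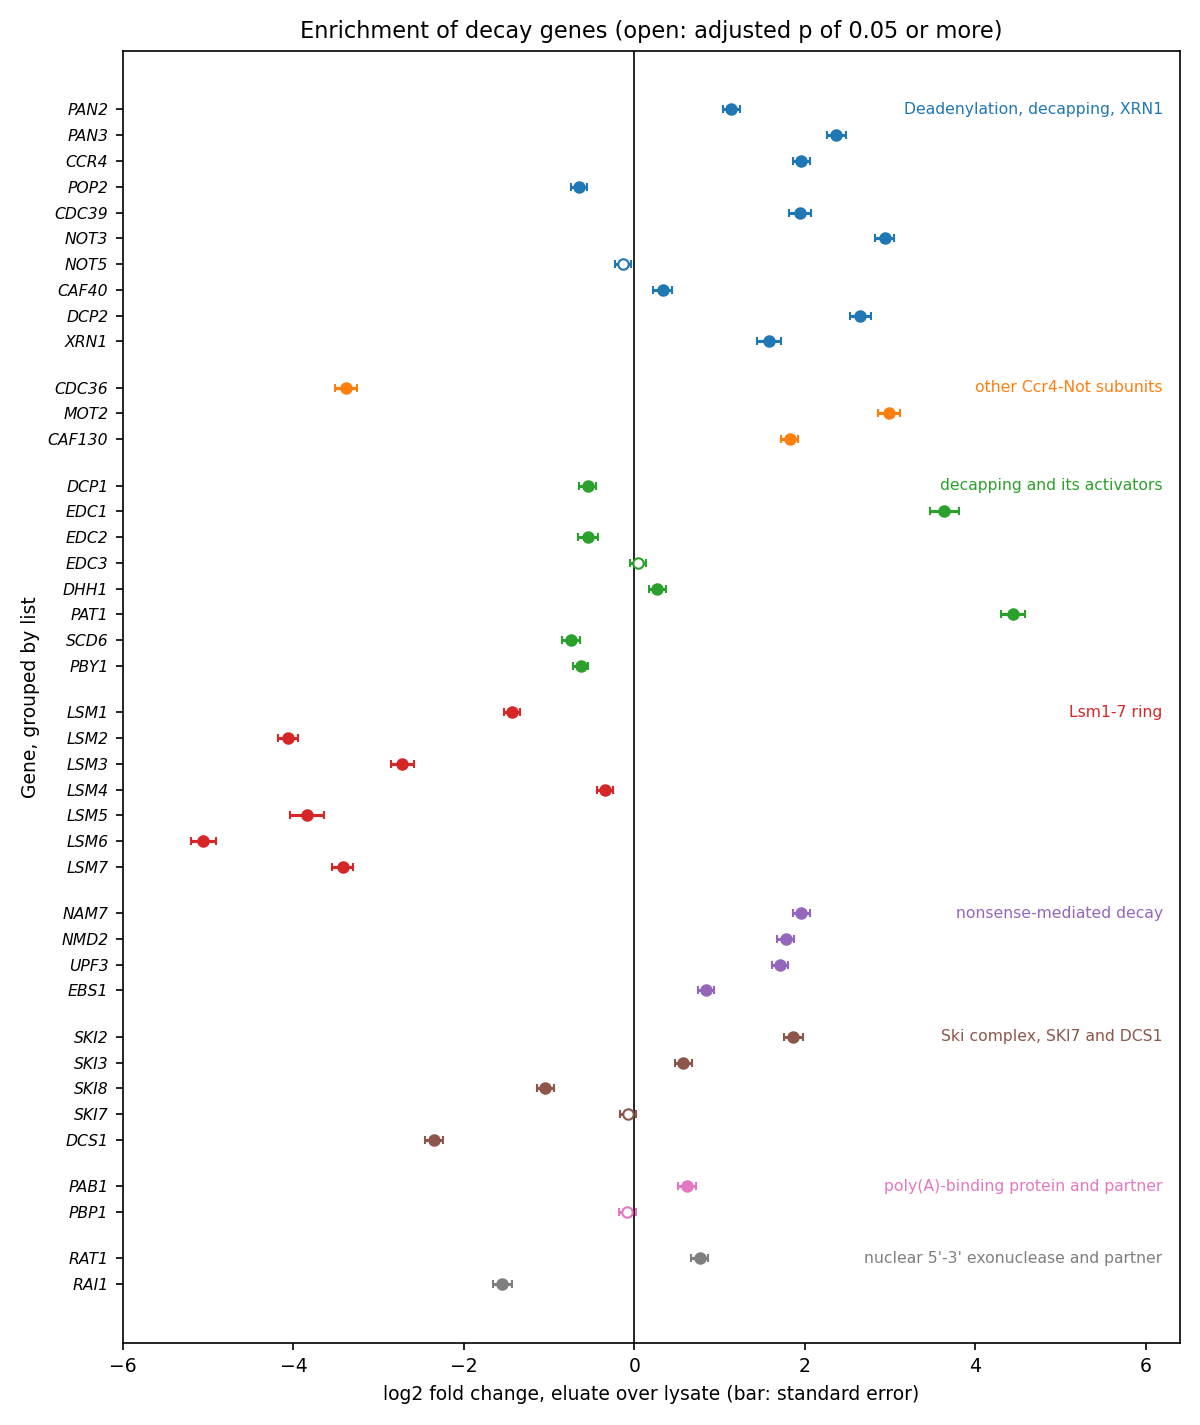
Log2 fold change of eluate over lysate with its standard error for the 10 genes (top group) and 31 other genes of mRNA decay, grouped by list, with open circles where the adjusted p was 0.05 or more. NOT5, EDC3, SKI7 and PBP1 are open, all 7 LSM genes lie left of 0 and all 4 genes of nonsense-mediated decay lie right of it.

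NOT3, the highest of the 10 genes, had its closest profile over the 4 libraries in KIP3, a kinesin gene, at a Euclidean distance of 0.178 in log2(CPM + 1). SCD5, an endocytosis gene, and MNN4, of mannose phosphorylation, followed at 0.244 and 0.249.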

How the data were processed

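Per-gene read counts over open reading frames were deposited by the authors for 2 eluates and 2 lysates, from strand-specific, rRNA-depleted libraries sequenced together from both ends. The submitters' processing notes name STAR 2.7.9a, featureCounts of Subread 2.0.3 and sacCer3. How strand and reads with several matches were counted was not stated in the sources used here, so antisense and duplicated genes are uncertain. A second table with the authors' own DESeq2 1.38.3 comparison (fold changes, p-values and mean levels) was not used.

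Groups followed the sample titles. The test of eluate against lysate used the quasi-likelihood functions of edgeR 4.0.16 (R 4.3.3) with filterByExpr, TMM and fraction as the only term, and Benjamini-Hochberg adjustment over all genes tested. Dividing the size of a log2 fold change by the square root of its F statistic gave its standard error. The trend with length was a loess fit (span 0.5) over nuclear protein-coding genes. Symbols came from RefSeq R64, which matched 6008 of 6692 identifiers. Shares, ratios and exact tests used Python 3.11.15 with scipy 1.17.1. The edgeR, DESeq2 and limma-voom fits were tested on simulated counts in which few genes changed, as many up as down. No trend with length was simulated. The loess trend, shares, ratios and exact tests were not tested in this way.

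The 10 genes, the lists and the alternatives (limma 3.58.1 voom, DESeq2 1.42.0 and others) were chosen with earlier results of these data known. Genes named in the lists are all those of lists of up to 5 genes, the 3 most abundant in the lysates of longer lists, those said to be singled out later or named for an overlap or a change of sign (DCP1, EDC1, EDC2, PAT1, LSM4 and LSM5), and the 3 genes closest in profile to the highest of the 10.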

Additional observations from a re-analysis of the deposited data

How the results depend on the processing

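In all 12 alternative fits, PAN2, PAN3, CCR4, CDC39, NOT3, DCP2 and XRN1 were called higher, and with any library left out 8 of the 10 genes were higher and 1 lower. Such a fit takes its spread from the fraction that keeps 2 libraries and from that shared across genes, and assumes that the lone library varies alike, so these calls are weak evidence of stability. With library sizes alone 7 of the 10 were higher and 2 lower, against 2485 higher and 2971 lower of 6191 genes tested. The median over the 10 genes was then 1.58, and 1 of PAB1 and PBP1 was called lower. Against a 1.5-fold change (glmTreat) 7 of the 10 were higher and 0 lower, against 2186 higher and 2254 lower of 6191 genes tested. POP2 had adjusted p = 0.126 from glmTreat, while edgeR's main test, DESeq2 and limma-voom each called 1 of the 10 lower. Calls from glmTreat fell to 2 higher and 1 lower among decapping genes and 6 lower in the Lsm1-7 ring. They fell to 1 higher among Ski and scavenger genes and 0 higher among PAB1 and PBP1. With a library left out, the median ranged from 1.65 to 1.87. The share of counts was 2.54 times as large in the eluates when cytosolic ribosomal protein genes were left out of the total.

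Less the trend with coding length, the median over the 10 genes was 0.034. PAN2, CDC39 and XRN1 then had residuals of -0.60, -0.63 and -0.61, below the trend. Among other decay genes the sign changed for DCP1 (0.59), EDC2 (1.01), DHH1 (-0.00089), LSM1 (0.0020), LSM4 (1.03), EBS1 (-0.58), SKI2 (-0.089), SKI3 (-1.53) and RAT1 (-0.83). EDC3, not called, had -0.13 with library sizes alone and ranged from -0.000011 to 0.086 with a library left out.

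Eluates and lysates share replicate numbers, but no source ties them to a culture. Deviations of same-numbered libraries had r = -0.033 over 6191 genes. With the replicate number as a block, 8 of the 10 were higher and 1 lower, and 2730 of all genes were higher and 2769 lower. With 2 libraries a fraction, the spread of a gene rests mostly on that shared across genes.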
